A study of Mus musculus with 10 samples.

Results

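The nuclear genes of oxidative phosphorylation were followed across 4 groups of sorted mouse bone marrow progenitors. The rule that chose them used names and no measured value, but it was set with earlier results of these data known. It took every symbol that begins with Nduf, 1 of the letters a, b, c, s or v and a number. Symbols that begin with Uqcr, with Cox4 to Cox8, or with Atp5 were taken too. Only probe sets annotated to 1 such symbol alone were used. The rule found 78 of the 23152 genes measured. They comprised 34 subunits of complex I, 7 of complex III, 18 of complex IV, 15 of complex V and 4 further genes whose names match but whose products are not subunits of 1 complex.

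The series divided lymphoid-primed multipotent progenitors (LMPPs) by CD127, the alpha chain of the interleukin-7 receptor, and compared them with common lymphoid progenitors (CLPs). All cells were lineage-negative bone marrow cells with high Flt3 from adult mice of the C57BL/6 strain, and the labels name no genetic change and no treatment. LMPPs had high cKit and Sca-1 and were CD127− (3 arrays) or CD127+ (3 arrays), while CLPs had low cKit and Sca-1, were CD127+, and were Ly6D− (2 arrays) or Ly6D+ (2 arrays). The labels do not say whether replicates came from separate animals or sorts, so the spread behind each p-value may be technical. The sources used here do not give whether the LMPP and CLP arrays were run together. If they were not, an effect of the run cannot be told apart from a difference between LMPPs and CLPs. This holds for every comparison of CLPs with LMPPs below.

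Oxidative phosphorylation takes place in the inner mitochondrial membrane. Complex I (NADH dehydrogenase) and complex II pass electrons to ubiquinone, complex III passes them to cytochrome c, and complex IV (cytochrome c oxidase) passes them to oxygen, and the proton gradient that complexes I, III and IV build drives ATP synthesis by complex V. Most subunits are encoded in the nucleus and imported, while a few core subunits are encoded by the mitochondrial genome. Blood stem cells are known for a low reliance on respiration.

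A gene's value is the mean log2 signal of its probe sets, and a difference of −1 on that scale is a 2-fold lower signal. Gene values correlated between arrays of a group with r from 0.972 to 0.986 across genes. The 95th percentile of 1419 sensory receptor genes, which blood progenitors are not known to use, was 4.43 and served as the limit of low signal. Of the 78 members, 73 lay above it on average, and Cox8c, Cox7b2, Cox8b, Ndufa4l2 and Atp5g1 did not. Members rested on a median of 6 probe sets (1 to 24), and Atp5l, Ndufb4 and Uqcrb on 1 each.

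Among the genes of the sort markers, Il7r and Kit followed the gates and Ly6a did not. Il7r (CD127) read 3.84 to 4.70 in CD127− LMPPs and 9.05 to 9.66 in the other groups, and Kit read 8.27 to 8.74 in LMPPs and 6.99 to 7.73 in CLPs. Ly6d read 11.31 and 11.35 in Ly6D+ CLPs and 5.59 and 6.17 in Ly6D− CLPs, but 8.53 to 8.81 in CD127+ LMPPs. Ly6a, which encodes Sca-1, read 5.63 to 5.99 in CD127− LMPPs and 6.41 to 7.58 in CD127+ LMPPs, both sorted as high, and 5.04 to 6.77 in CLPs, sorted as low, so the groups overlapped. CD127+ LMPPs also stood apart in markers of other cells. The mean of 12 mature granulocyte genes was 6.27 to 7.01 on their arrays and 4.35 to 5.28 on all others, with 7 of the 12 higher than in CD127− LMPPs, and the mean of 9 erythroid genes was 5.36 to 5.93 against 4.50 to 4.82. The mean levels of the macrophage, mature B cell and T cell lists stayed between 3.38 and 4.46 on every array. Cd68, a macrophage marker, was brighter than its list, at 8.44 to 8.82 in CD127− LMPPs, 7.64 to 7.73 in CD127+ LMPPs and 6.92 to 7.79 in CLPs. In sorted bulk samples, fewer cells of a type and less RNA per cell cannot be told apart.

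Nuclear genes of oxidative phosphorylation were lower in CLPs than in LMPPs, across complexes I, III, IV and V. With each side taken as the equal mean of its groups, 40 of the 78 members fell, 1 rose and 37 did not pass the test (limma, adjusted p under 0.05 over all genes). Of all genes tested, 8.72% fell and 5.39% rose, which is 14.1% in either direction. Among the 12216 genes above the limit of low signal 15.5% fell and 7.99% rose, and among the 1491 genes with a mean of at least 8 these shares were 20.7% and 15.1%. The median difference of the members was −0.48, beside 0.01 for all genes, −0.07 for genes above the limit and −0.02 for genes with a mean of at least 8. The difference was negative for 69 of the 78, and on 45 of them every CLP array lay below every LMPP array, which held for 6.96% of all genes. At the level of single probe sets, 430 of the members' 549 (78.3%) were lower in CLPs, against 48.9% of all probe sets with 1 symbol. In the same comparison 6 of the 12 granulocyte, 4 of the 9 erythroid and 2 of the 9 macrophage genes (Cd68 and Emr1) fell too, and their part in the members' differences was not tested.

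**Figure D1:**
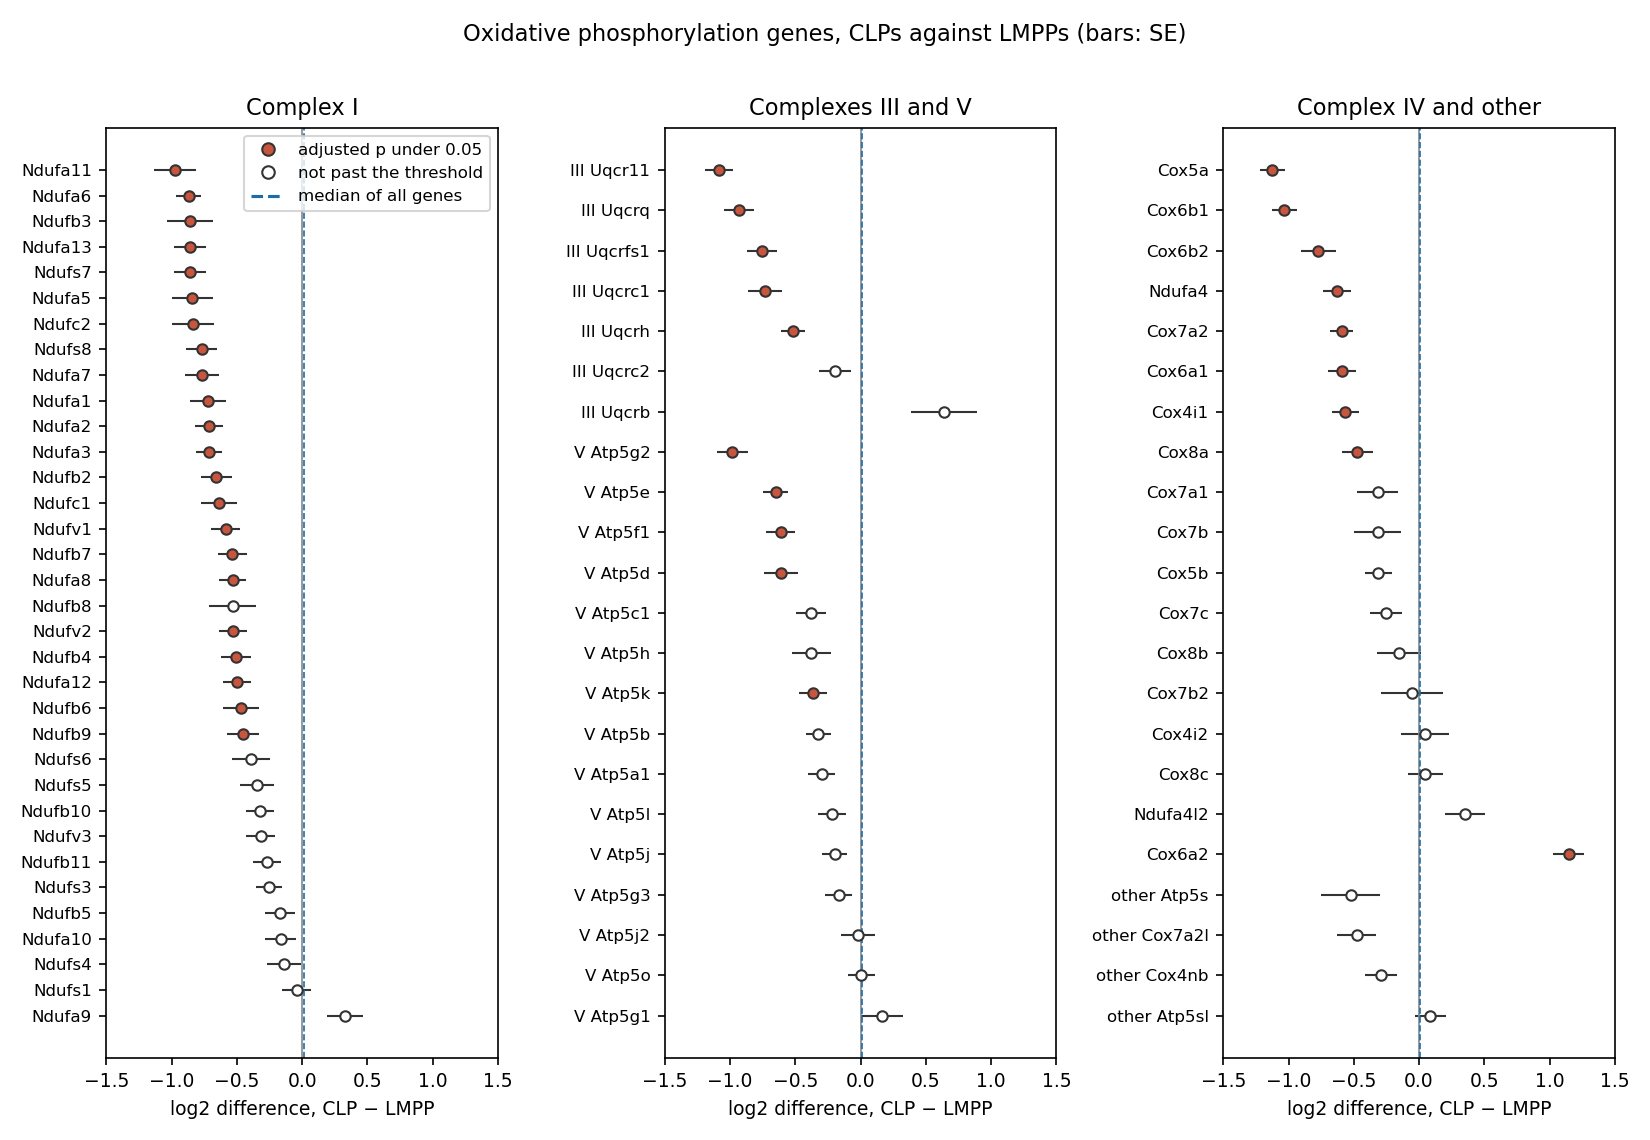
Difference in log2 signal between CLPs and LMPPs for each of the 78 genes, sorted within its complex, with the limma standard error as bar. Filled points passed an adjusted p of 0.05, the dashed line is the median of all genes (0.01), and 40 filled points lie to the left and 1, Cox6a2, to the right.

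The largest falls were in complexes IV and III. Cox5a, a subunit on the matrix side of cytochrome c oxidase, read 10.97, 10.75 and 10.83 in CD127− LMPPs, 10.74, 10.74 and 10.77 in CD127+ LMPPs, 9.68 and 9.61 in Ly6D− CLPs, and 9.67 and 9.74 in Ly6D+ CLPs. The signal thus fell by 1.13 in CLPs, or 2.18-fold (SE 0.10 in log2, adjusted p = 6.95e-05), and the LMPP and CLP arrays were separated by a gap wider than the spread within either. Cox6b1, which faces the intermembrane space and lies where the monomers of the complex IV dimer meet, read 10.93, 10.74 and 10.92, then 10.81, 10.75 and 10.78, then 9.90 and 9.79, then 9.81 and 9.66 in the same order of groups, a 2.04-fold fall (−1.03, SE 0.10). Uqcr11, a small accessory subunit of complex III, read 8.62, 8.78 and 8.44, then 8.49, 8.21 and 8.37, then 7.33 and 7.46, then 7.36 and 7.44 (−1.09, SE 0.11, 2.12-fold). In all 3 genes the LMPP groups lay close together and the CLP groups lay close together.

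Each of these 3 genes was also lower in every one of the 4 comparisons of a single CLP group with a single LMPP group, as were Uqcrq, Ndufa6, Atp5g2 and Cox7a2, and no other member. Uqcrq, another small subunit of complex III, read 8.33 to 8.79 on the 6 LMPP arrays and 7.42 to 7.75 on the 4 CLP arrays (−0.93, SE 0.11). Ndufa6, an accessory subunit where complex I meets ubiquinone, read 9.57, 9.58 and 9.56 in CD127− and 9.37, 9.49 and 9.51 in CD127+ LMPPs, and 8.71, 8.79, 8.57 and 8.49 in the CLP arrays (−0.87, SE 0.09). Atp5g2, which encodes the c subunit of the ATP synthase rotor, read 11.17 to 11.63 in LMPPs and 10.36 to 10.59 in CLPs (−0.98, SE 0.12). Cox7a2, the common form of subunit 7A, fell by less but with little spread, from 10.20 to 10.31 in LMPPs to 9.63 to 9.69 in CLPs (−0.59, SE 0.09, 1.51-fold). With the brightest probe set in place of the mean, the pooled differences of Cox6b1 (−0.39, adjusted p = 0.082) and Atp5g2 (−0.37, adjusted p = 0.0798) no longer passed. The choice of these 7 genes rested on Ly6D− CLPs against CD127+ LMPPs, where all but Cox5a lost the call with at least 1 array left out, at adjusted p-values of up to 0.067 for Cox6b1, 0.0722 for Uqcr11, 0.0941 for Ndufa6, 0.0948 for Atp5g2, 0.147 for Cox7a2 and 0.155 for Uqcrq. With only the arrays of those groups fitted, none of the 7 passed there.

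**Figure D2:**
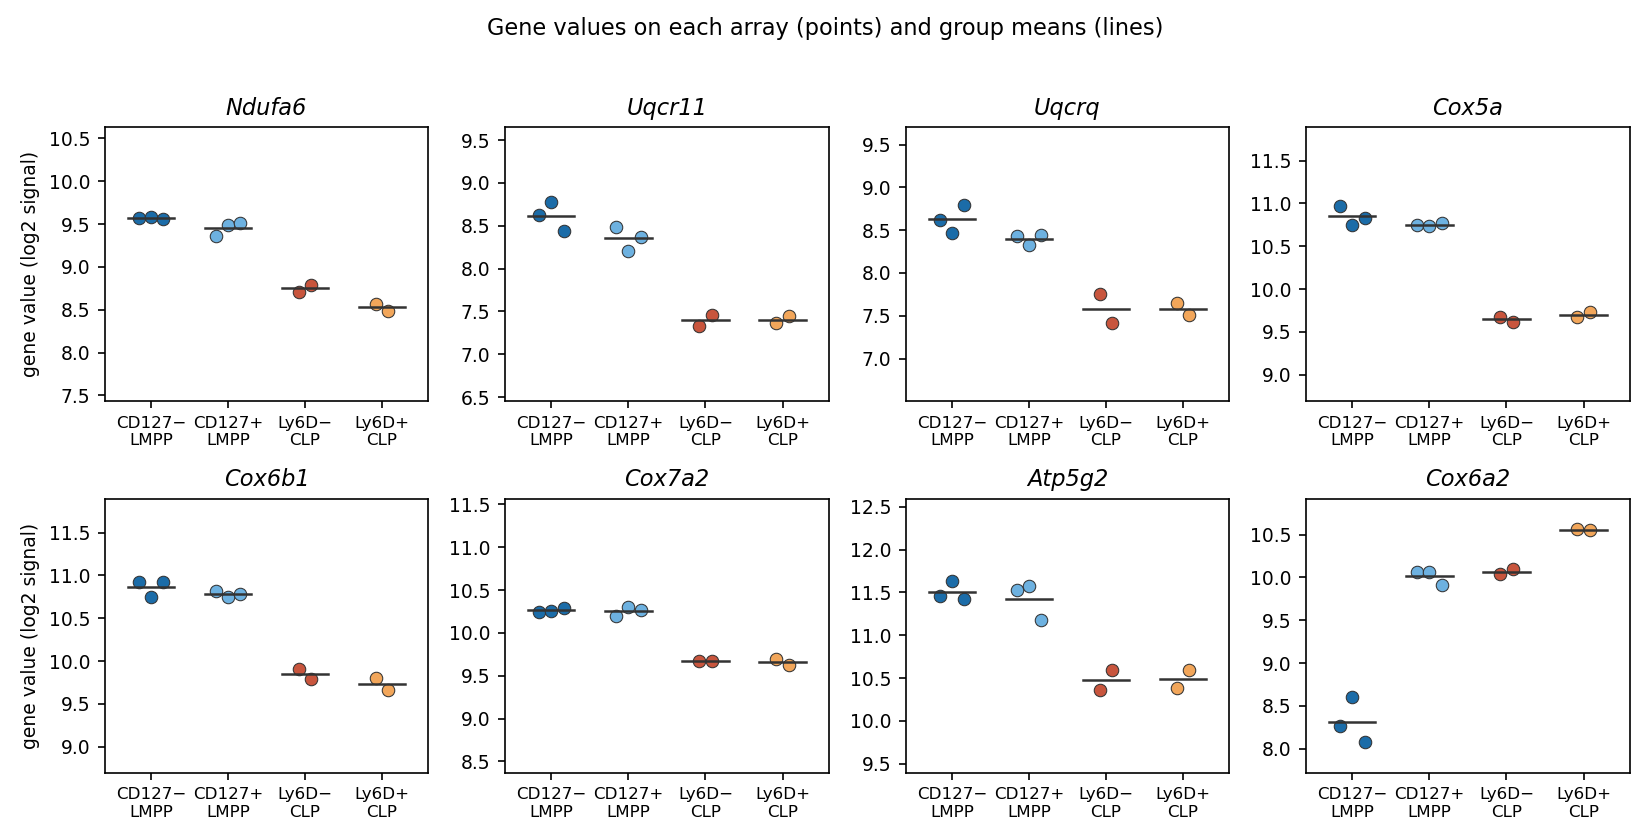
Gene values in log2 signal on each of the 10 arrays (points) with group means (lines) for the 7 genes lower in all 4 pairwise comparisons and for Cox6a2, each panel spanning the same height. In the 7 genes the LMPP arrays lie above the CLP arrays without overlap, while Cox6a2 is lowest in CD127− LMPPs (8.07 to 8.61).

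Promoters are shown for the 7 genes that were chosen for being lower in all 4 pairwise comparisons. Whether they share a regulator was not tested. RefSeq (GRCm38.p6) gave a promoter of 300 bases, 250 before and 50 after the start site, for 65 members, among them 6 of the 7: Ndufa6 (chr15:82354242-82354541, minus strand), Uqcr11 (chr10:80406772-80407071, minus), Cox5a (chr9:57520982-57521281, plus), Cox6b1 (chr7:30626065-30626364, minus), Cox7a2 (chr9:79759804-79760103, minus) and Atp5g2 (chr15:102670998-102671297, minus). They are written 5′ to 3′ along the gene, and capitals mark matches, on either strand, to the motifs named after them.
Ndufa6: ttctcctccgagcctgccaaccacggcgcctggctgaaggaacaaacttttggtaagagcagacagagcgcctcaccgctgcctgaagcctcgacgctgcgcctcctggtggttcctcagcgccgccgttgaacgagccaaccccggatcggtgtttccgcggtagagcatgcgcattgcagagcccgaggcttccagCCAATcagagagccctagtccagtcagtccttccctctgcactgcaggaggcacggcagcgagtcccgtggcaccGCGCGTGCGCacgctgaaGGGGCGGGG
Uqcr11: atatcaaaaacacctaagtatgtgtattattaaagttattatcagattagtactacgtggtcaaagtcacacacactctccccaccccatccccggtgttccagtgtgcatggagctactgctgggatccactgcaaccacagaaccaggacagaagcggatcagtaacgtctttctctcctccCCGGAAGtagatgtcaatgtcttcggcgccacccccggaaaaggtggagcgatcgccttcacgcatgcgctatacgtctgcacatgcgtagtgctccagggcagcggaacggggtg
Cox5a: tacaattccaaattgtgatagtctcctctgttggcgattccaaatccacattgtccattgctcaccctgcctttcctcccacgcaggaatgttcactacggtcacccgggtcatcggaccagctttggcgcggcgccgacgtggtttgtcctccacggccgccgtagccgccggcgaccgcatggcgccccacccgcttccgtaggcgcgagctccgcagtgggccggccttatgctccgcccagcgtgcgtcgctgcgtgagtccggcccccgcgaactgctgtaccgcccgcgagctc
Cox6b1: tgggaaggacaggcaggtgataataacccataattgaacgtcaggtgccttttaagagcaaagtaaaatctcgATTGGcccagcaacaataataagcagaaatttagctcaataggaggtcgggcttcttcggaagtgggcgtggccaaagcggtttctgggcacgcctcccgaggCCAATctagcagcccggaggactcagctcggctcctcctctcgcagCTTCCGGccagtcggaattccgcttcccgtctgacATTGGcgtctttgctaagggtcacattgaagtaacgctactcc
Cox7a2: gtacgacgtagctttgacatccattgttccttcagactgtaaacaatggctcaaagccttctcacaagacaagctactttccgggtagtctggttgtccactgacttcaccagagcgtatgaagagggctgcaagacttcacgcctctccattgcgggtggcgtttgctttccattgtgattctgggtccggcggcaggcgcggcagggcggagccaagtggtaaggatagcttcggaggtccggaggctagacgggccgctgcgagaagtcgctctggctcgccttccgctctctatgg
Atp5g2: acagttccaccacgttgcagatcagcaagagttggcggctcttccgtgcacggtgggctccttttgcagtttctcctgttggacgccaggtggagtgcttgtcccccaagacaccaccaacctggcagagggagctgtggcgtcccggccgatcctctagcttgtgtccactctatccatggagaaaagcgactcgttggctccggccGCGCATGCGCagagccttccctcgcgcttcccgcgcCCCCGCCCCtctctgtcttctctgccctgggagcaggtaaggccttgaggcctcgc

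The motifs searched on both strands were those of NRF1 and YY1 (a consensus of 10 and of 11 letters), ETS factors such as GABP (CCGGAAG), SP1 (GGGGCGGGG), the estrogen-related receptors (TCAAGGTCA), the E-box (CACGTG) and the CCAAT box (CCAAT). None of these contains another, and matches were counted whether or not they overlapped. Atp5g2 held an NRF1 match at −42 and an SP1 match at −6, counted from the start site to the first base of the match, and Ndufa6 an NRF1 match at 24, an SP1 match at 42 and a CCAAT box at −52. Cox6b1 held an ETS match at −28 and CCAAT boxes at −177, −74 and 8, Uqcr11 an ETS match at −66, and Cox5a and Cox7a2 none of these letters. Only the first promoter listed for each gene was searched. For Cox5a and Cox7a2 this window lay inside the gene, whose bounds were 57517328 to 57532427 and 79755241 to 79771422 on chr9. Sequence before the outer ends of these 2 genes was thus not searched.

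Among the 65 members with a promoter, 14 (21.5%) held the NRF1 motif, against 4.78% of all 27025 promoters and 6.60% of those of 17491 protein-coding genes. For YY1 these values were 5 members (7.69%), 0.699% and 0.972%, and for ETS 13 members (20%), 9.12% and 11.9%. The SP1 motif was in 16.9% of the members, against 11.6% of all promoters and 15.5% of those of protein-coding genes. For the E-box these shares were 10.8%, 7.24% and 7.90%, and for CCAAT 43.1%, 37.9% and 39.0%. For the estrogen-related receptor motif they were 1.54%, which is 1 member, 0.407% and 0.332%. The median GC content was 57% in the members and 56.3% in protein-coding genes. The NRF1 motif was present in 9 of the 36 members that fell and in 5 of the other 29, the ETS motif in 10 and 3, and YY1 in 1 and 4. These are descriptions of the letters in the window, with no test.

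Complex I held the largest number of falls. Of its 34 members 22 fell, none rose and 12 did not pass, and the differences of the 22 ran from −0.98 to −0.46 (adjusted p up to 0.0475). The median was −0.53, and 33 of the 34 were negative. By position, 5 of 9 fell in the NADH-oxidising N module, 4 of 6 in the Q module that reduces ubiquinone, and 13 of 19 among the accessory subunits of the membrane arm, the P module, with medians of −0.50, −0.81 and −0.53. Core subunits, which carry the flavin and iron-sulfur clusters or their scaffold, and accessory subunits gave similar counts, 4 of 6 and 18 of 28, with medians of −0.56 and −0.53.

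Among the core subunits Ndufs7, which carries the last iron-sulfur cluster before ubiquinone, read 8.39, 8.55 and 8.07 in CD127− LMPPs, 8.01, 8.26 and 8.38 in CD127+ LMPPs, and 7.50, 7.47, 7.29 and 7.41 on the CLP arrays (−0.86, SE 0.12, adjusted p = 0.00131). Ndufs8, its neighbour in the cluster chain, read 8.41 to 8.96 in LMPPs and 7.71 to 8.09 in CLPs (−0.77, SE 0.12). Ndufv1, which binds NADH and the flavin, and Ndufv2 fell by 0.59 and 0.53, but with the median of their probe sets they gave −0.39 and −0.33 and did not pass. Ndufs1, the largest iron-sulfur subunit, did not follow them: its arrays overlapped (6.49 to 6.91 in LMPPs, 6.57 to 6.74 in CLPs) and its difference was −0.04 with a 95% interval of −0.29 to 0.21. Ndufs3, with −0.25 (adjusted p = 0.121), did not pass either.

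Accessory subunits fell over a wide range. Ndufa11, a membrane arm subunit, had the largest difference of complex I and read 7.51, 7.51 and 6.98 in CD127− LMPPs, 7.61, 7.45 and 7.20 in CD127+ LMPPs, 6.74 and 6.51 in Ly6D− CLPs, and 6.44 and 5.90 in Ly6D+ CLPs (−0.98, SE 0.16). Ndufa3, the member of complex I with the highest array signal, read 9.61 to 9.88 in LMPPs and 8.89 to 9.18 in CLPs (−0.71, SE 0.10, adjusted p = 0.00107). LMPPs and CLPs did not overlap for either gene. Ndufa13, also known as Grim19, fell by 0.86, Ndufb3 by 0.86, Ndufa5 by 0.84, Ndufc2 by 0.84, Ndufa7 by 0.77, Ndufa1 by 0.72 and Ndufa2 by 0.71. Falls of 0.46 to 0.66 were measured for Ndufb2, Ndufc1, Ndufb7, Ndufa8, Ndufb4, Ndufa12, Ndufb6 and Ndufb9, with Ndufb9 (adjusted p = 0.0333) and Ndufb6 (0.0475) nearest to the threshold. The brightest probe set ended the calls of Ndufa2 (−0.18), Ndufa8 (−0.13), Ndufb6 (−0.34) and Ndufb9 (−0.27), and the median of the probe sets those of Ndufa1 (−0.44), Ndufa12 (−0.58), Ndufb3 (−0.79) and Ndufb9 (−0.26). Ndufa12, Ndufb4, Ndufb6 and Ndufb9 also lost the call with 1 or more single arrays left out, among them Ly6D+ replicate 1 for each. For Ndufb7 the brightest probe set went the other way (0.10, adjusted p = 0.669). Ndufb4 rests on 1 probe set, and the mean of 5 others shared with other symbols gave −0.25 with overlapping groups.

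The 11 other members of complex I that did not pass had lower values in CLPs in 10 cases, from −0.53 for Ndufb8 (adjusted p = 0.0764) to −0.14 for Ndufs4. They were Ndufb8, Ndufs6, Ndufs5, Ndufb10, Ndufv3, Ndufb11, Ndufs3, Ndufb5, Ndufa10 and Ndufs4. Ndufa9, which sits beside the ubiquinone site, was the exception at 0.33 (SE 0.14, adjusted p = 0.151). It read 8.31, 8.10 and 7.96 in CD127− LMPPs, 7.83, 7.66 and 8.28 in CD127+ LMPPs, 8.28 and 8.45 in Ly6D− CLPs, and 8.27 and 8.41 in Ly6D+ CLPs, so its groups overlapped. Ndufs5 had the lowest array signal of complex I, 4.43 to 5.49, close to the limit of 4.43.

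In complex III 5 of 7 members fell and none rose, with a median of −0.73. Besides Uqcr11 and Uqcrq these were Uqcrfs1, Uqcrc1 and Uqcrh. Uqcrfs1, the Rieske iron-sulfur protein that takes electrons from ubiquinol, read 7.75, 7.58 and 7.46 in CD127− LMPPs, 7.50, 7.73 and 7.39 in CD127+ LMPPs, 6.54 and 6.72 in Ly6D− CLPs, and 6.95 and 7.04 in Ly6D+ CLPs (−0.76, SE 0.11, adjusted p = 0.00152). Every CLP array was below every LMPP array. Uqcrc1, a core protein on the matrix side, was lower on all of its 15 probe sets (−0.73, SE 0.13), and with their median it gave −0.52 (adjusted p = 0.081). Uqcrh, the hinge protein, fell by 0.52 (SE 0.10). The brightest probe set of Uqcrfs1 gave 0.0073 and that of Uqcrh 0.0037, so these calls rest on their other probe sets. With the median of its probe sets, Uqcrfs1 gave −0.48 (adjusted p = 0.21).

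The other 2 members of complex III did not pass. Uqcrc2, the partner of Uqcrc1, gave −0.20 (SE 0.12, adjusted p = 0.339). Uqcrb gave 0.64 (SE 0.25, adjusted p = 0.125) on 1 probe set with a low signal of 3.88 to 5.99 and overlapping groups. A further probe set annotated to Uqcrb together with another symbol, which the rule leaves out, was lower in CLPs by 1.19.

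Several nuclear subunits of complex IV are encoded by paralogue pairs, with a common form and a form known from heart, muscle, lung or testis. Of the 10 common forms 7 fell, with a median of −0.58, and all 10 differences were negative. Of the 8 tissue-restricted forms 1 fell, 1 rose and 6 did not pass, with a median of −0.004, which was 0.01 after median centring. The test of the difference between these classes was not made, since members of a complex are not replicates, and 4 of the restricted forms (Cox8b, Cox8c, Cox7b2 and Ndufa4l2) were not above the limit of low signal.

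The common forms that fell besides Cox5a, Cox6b1 and Cox7a2 were Ndufa4, Cox4i1, Cox6a1 and Cox8a. Ndufa4, first assigned to complex I and later placed in complex IV, read 11.23 to 11.51 in LMPPs and 10.65 to 10.90 in CLPs (−0.63, SE 0.11). Cox4i1, the largest nuclear subunit, read 11.14 to 11.45 and 10.63 to 10.86 (−0.56, SE 0.10), and Cox6a1 read 11.35 to 11.60 and 10.70 to 11.03 (−0.59, SE 0.11, adjusted p = 0.00484). Cox8a fell by 0.47 (adjusted p = 0.0226). In these 4 genes no CLP array reached an LMPP array. On the brightest probe set Cox4i1 (−0.32, adjusted p = 0.134), Cox6a1 (−0.26, 0.205) and Cox8a (−0.16, 0.609) no longer passed, nor did Ndufa4 with the median of its probe sets (−0.58, 0.0963). Cox8a also lost its call after quantile normalization (−0.32, 0.104) and without CD127+ replicate 1, Ly6D− replicate 1 or Ly6D+ replicate 2. Cox5b (−0.31, adjusted p = 0.0747), Cox7b (−0.32) and Cox7c (−0.25) did not pass.

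Cox6a2, the heart and muscle form of subunit 6A, was the only member that rose. It read 8.27, 8.61 and 8.07 in CD127− LMPPs, 10.06, 10.06 and 9.92 in CD127+ LMPPs, 10.04 and 10.10 in Ly6D− CLPs, and 10.56 and 10.55 in Ly6D+ CLPs. The CD127− arrays were thus well below all others, CD127+ LMPPs overlapped with Ly6D− CLPs, and Ly6D+ CLPs were highest. Against the LMPP mean, CLPs were higher by 1.15 (SE 0.12, adjusted p = 0.000209), and all 5 probe sets were higher, by 1.02 to 1.24. Its paralogue Cox6a1 fell in the same pooled comparison (−0.59). Cox6a2 was not called against CD127+ LMPPs in either CLP group.

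Cox6b2, the testis form of subunit 6B, fell like its common partner. It read 8.34, 8.70 and 8.46 in CD127− LMPPs, 8.14, 8.06 and 8.38 in CD127+ LMPPs, 7.38 and 7.72 in Ly6D− CLPs, and 7.43 and 7.77 in Ly6D+ CLPs (−0.77, SE 0.13, adjusted p = 0.00318), with no overlap between LMPPs and CLPs. The other restricted forms gave low signals and no call. Cox4i2, the lung form of subunit 4, read 4.54 to 5.52 over all arrays (0.05, SE 0.18), and Cox7a1, the muscle form of subunit 7A, read 4.10 to 5.17 (−0.32, SE 0.16, adjusted p = 0.218). Cox8b, Cox8c and Cox7b2 were not above the limit of low signal on any array, and Ndufa4l2, the paralogue of Ndufa4, read 3.59 to 4.65 (0.35, adjusted p = 0.156).

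Complex V had the smallest share of falls among the 4 complexes, 5 of 15, with none that rose and a median of −0.32. In the F1 part Atp5e, the epsilon subunit, read 12.01, 12.08 and 11.97 in CD127− LMPPs and 11.94, 11.97 and 12.01 in CD127+ LMPPs. It read 11.27 and 11.50 in Ly6D− CLPs, and 11.29 and 11.32 in Ly6D+ CLPs (−0.65, SE 0.10, adjusted p = 0.00152). On its brightest probe set it gave −0.40 (adjusted p = 0.0602). Atp5d, the delta subunit, fell by 0.61. The alpha, beta and gamma subunits lay just short of the threshold: Atp5a1 at −0.30 (adjusted p = 0.0725), Atp5b at −0.32 (0.0519) and Atp5c1 at −0.38 (0.0515). In all 3 of them the highest CLP array was close to the lowest LMPP array: 9.58 against 9.61 for Atp5a1, 9.63 against 9.75 for Atp5b, and 6.53 against 6.48 for Atp5c1.

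The c subunit of the rotor is made from 3 genes that encode the same mature protein, and they differed. Atp5g2 fell by 0.98. Atp5g3 read 8.88 to 9.16 in LMPPs and 8.78 to 9.01 in CLPs, which overlapped (−0.17, 95% interval −0.40 to 0.06). Atp5g1 read 4.03 to 4.78 in LMPPs, 4.11 and 3.99 in Ly6D− CLPs, and 5.12 and 4.69 in Ly6D+ CLPs, around the limit of low signal (0.16, adjusted p = 0.567). In the stalk and membrane part Atp5f1, the b subunit, fell by 0.61 and Atp5k, the e subunit, by 0.36 (adjusted p = 0.0478). Atp5f1 did not pass with the median (−0.49) or the brightest (−0.34) of its probe sets, and Atp5k lost its call when any array other than CD127− replicate 2 was left out. Atp5o, the subunit that confers oligomycin sensitivity, gave 0.01 with a 95% interval of −0.22 to 0.23. Atp5h, Atp5l and Atp5j gave −0.38, −0.22 and −0.20 without passing. Atp5j2 gave −0.02, but a further probe set annotated to it together with another symbol, which the rule leaves out, gave −0.64.

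None of the 4 members outside the complexes passed. Cox7a2l, a factor that joins complexes III and IV into supercomplexes, gave −0.48 (SE 0.15, adjusted p = 0.0569). Atp5s (now Dmac2l) gave −0.52, Cox4nb (now Emc8, part of a complex of the endoplasmic reticulum) −0.29 and Atp5sl (now Dmac2) 0.09.

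**Figure D3:**
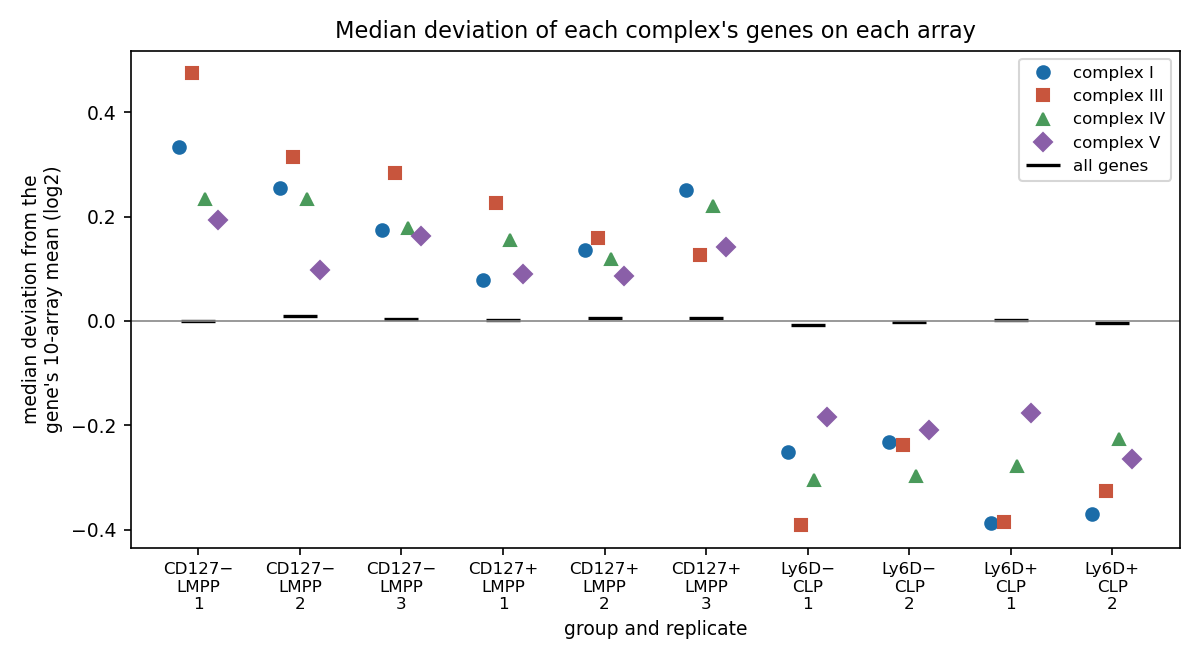
Median, over the genes of a complex, of each array's deviation from the gene's mean over the 10 arrays, in log2 signal, by group and replicate. The medians of complexes I, III, IV and V are above 0 on the 6 LMPP arrays and below 0 on the 4 CLP arrays, while the medians of all genes stay near 0.

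The same order was seen array by array. The median deviation of the members from their own 10-array means was 0.28, 0.23 and 0.17 in CD127− LMPPs, 0.12, 0.11 and 0.22 in CD127+ LMPPs, −0.24 and −0.22 in Ly6D− CLPs, and −0.32 and −0.29 in Ly6D+ CLPs. No array of an LMPP group fell among the CLP arrays. Complex III showed the widest span, from 0.47 to −0.39, and complex V the narrowest, from 0.19 to −0.26.

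Each CLP group was then set against each LMPP group, comparisons that share arrays. Against CD127− LMPPs, 27 members fell and 1, Cox6a2, rose in Ly6D− CLPs (4.17% of all genes fell and 2.93% rose, median of the members −0.46), and 38 fell and 1, again Cox6a2, rose in Ly6D+ CLPs (6.94% and 3.93%, median −0.55). Against CD127+ LMPPs, 8 fell in Ly6D− CLPs (1.42% fell and 0.635% rose, median −0.40) and 16 in Ly6D+ CLPs (2.75% and 1.28%, median −0.51), and none rose. In Ly6D− CLPs against CD127− LMPPs, none of the 12 granulocyte and none of the 9 erythroid genes passed (medians 0.06 and 0.19). Of the 9 macrophage genes 1 was lower. Members of these lists went both ways there. Among the erythroid genes, Car1 read 5.63 to 5.86 in CD127− LMPPs and 5.31 and 4.54 in Ly6D− CLPs. Car2 read 7.48 to 7.69 and then 6.81 and 7.25, while Klf1 read 4.84 to 5.01 and then 5.08 and 5.31. Against CD127+ LMPPs, 7 granulocyte and 4 erythroid genes were lower in Ly6D− CLPs and 6 and 4 in Ly6D+ CLPs. The part of these lists in the members' pairwise differences was not tested.

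Of the 78 members 61 had a negative difference in all 4 of these comparisons. By complex, the falls against CD127− LMPPs were 12 of 34 in Ly6D− CLPs and 21 of 34 in Ly6D+ CLPs for complex I, 5 of 7 in each for complex III, 7 of 18 in each for complex IV, and 3 and 5 of 15 for complex V. Ndufb11 (−0.54, adjusted p = 0.0463) and Atp5h (−0.90, adjusted p = 0.021), which did not pass in the pooled comparison, passed in Ly6D+ CLPs against CD127− LMPPs.

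These pairwise counts depended on single arrays more than the medians did. In either direction the calls over all genes were 7.1% and 2.06% for Ly6D− CLPs against CD127− and CD127+ LMPPs, and 10.9% and 4.03% for Ly6D+ CLPs. The count for Ly6D− CLPs against CD127− LMPPs, 28 with Cox6a2, was 11 without CD127− replicate 1, 17 without CD127− replicate 3, 18 without CD127+ replicate 2, and 10 and 15 without Ly6D− replicate 1 and 2. That for Ly6D− CLPs against CD127+ LMPPs was 1, 3 and 4 without CD127+ replicate 1, 2 and 3, and 3 and 1 without Ly6D− replicate 1 and 2. For Ly6D+ CLPs it was 11 and 15 without Ly6D+ replicate 1 and 2 against CD127− LMPPs, and against CD127+ LMPPs 9, 10 and 8 without CD127+ replicate 1, 2 and 3 and 4 and 3 without Ly6D+ replicate 1 and 2. The medians stayed between −0.59 and −0.36 in all of these fits. The pooled count stayed between 36 and 43 of 78, from 41. A test for any difference among the 4 groups called 34 members (9.38% of all genes), and 18, 20 and 19 without CD127− replicate 1, Ly6D+ replicate 1 and Ly6D+ replicate 2.

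Within the LMPPs, Cox6a2 alone among these genes passed the test between CD127+ and CD127− cells. Over all genes 1.47% were called, 0.881% higher and 0.592% lower, and Cox6a2 was the 1 member called, higher in CD127+ LMPPs by 1.70 (SE 0.15, 3.24-fold, adjusted p = 0.000274), with all 5 probe sets higher by 1.55 to 1.82. The granulocyte and erythroid lists are higher in the same arrays. In the CLP groups, where Cox6a2 was high too, the granulocyte list was at 4.61 to 5.28 and the erythroid list at 4.50 to 4.74. The part of these lists in the rise of Cox6a2 in CD127+ LMPPs was not tested.

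Over all members the median difference between CD127+ and CD127− LMPPs was −0.10, and 61 of 78 were negative (−0.04 and 50 after quantile normalization). The median was −0.01 for all genes, with 11778 of 23152 negative, and −0.04 for genes above the limit, with 6995 of 12216 negative. For genes with a mean of at least 8 it was −0.06, with 988 of 1491 negative. The most negative member was Ndufc2 in complex I (−0.35, adjusted p = 0.579), Uqcrb in complex III (−0.43, 0.687), Cox7b in complex IV (−0.41, 0.555) and Atp5h in complex V (−0.44, 0.419). The most positive was Ndufs5 in complex I (0.37, 0.433), Cox6a2 in complex IV and Atp5c1 in complex V (0.19, 0.701), while all 7 members of complex III were negative. At an unadjusted p under 0.05 there were 4 members, Cox6a2, Atp5h, Ndufb11 and Ndufs5. Some of 78 genes reach such a value even where nothing differs, so only Cox6a2 is a call.

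Within the CLPs no member passed between Ly6D+ and Ly6D− cells (limma; 0.0993% of all genes did, 0.0389% higher and 0.0605% lower), and 5 had an unadjusted p under 0.05. These were Atp5g1 (0.86, adjusted p = 0.332), Cox7a1 (0.69, 0.422), Cox6a2 (0.49, 0.467), Atp5h (−0.61, 0.478) and Ndufa4l2 (−0.53, 0.537). Some of 78 genes reach such an unadjusted value even where nothing differs, and none of the 5 is a call. The median of the members was −0.10 (−0.05 after quantile normalization), beside −0.003 for all genes, and 52 of 78 were negative. With 2 arrays in each group, intervals were wide: Cox5a differed by 0.06 with a 95% interval of −0.27 to 0.38, and Cox6a2 by 0.49 with an interval of 0.08 to 0.89.

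Other genes of the pathway and of mitochondria were counted in the same fit, each list beside the 8.72% of all genes that fell and the 5.39% that rose in CLPs against LMPPs. Of 6 measured genes of the electron chain and ATP synthase with other symbols 5 fell, with a median of −0.48. Among them were Cycs, the carrier cytochrome c (−0.50), Cyc1, cytochrome c1 of complex III (−0.48), and 2010107E04Rik, a small protein of ATP synthase (−0.80). In complex II, which links the citric acid cycle to the chain, Sdhd (−0.73) and Sdhb (−0.38) fell, while Sdhc (−0.19) and Sdha (−0.15) did not pass. Of 29 assembly factors 11 fell (median −0.29), led by Surf1 (−0.96) and Sco2 (−0.93), which build complex IV. None of these 3 lists held a gene that rose.

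The transcripts of the mitochondrial genome did not share the lower values. All 10 that were measured, each on 1 probe set, had small positive differences, with a median of 0.13, and none passed (ND6 0.31, adjusted p = 0.099). ND6 read 11.35 to 11.71 in LMPPs and 11.62 to 11.93 in CLPs, and CYTB 11.81 to 12.26 and 11.98 to 12.19, with overlap in both. In ND4L every CLP array (11.33 to 11.46) was above every LMPP array (11.05 to 11.32), with a difference of 0.23 (adjusted p = 0.186). The difference was positive for all 10 after quantile normalization and median centring too, and after quantile normalization 2 of them passed. The 1419 sensory receptor genes also read higher in CLPs, with a median of 0.11, 996 positive, 40 called higher and 3 lower. Median centring gave 0.14 for the mitochondrial transcripts and 0.12 for the receptor genes, and quantile normalization gave 0.17 and 0.04. The part of such a shift in the mitochondrial values was not tested.

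Lists of mitochondrial protein handling moved with the members. Of 75 mitochondrial ribosomal proteins, which translate the subunits encoded in the organelle, 44 fell and none rose (median −0.54), led by Mrpl36 (−1.44) and Mrpl52 (−1.42). Of 21 import genes 10 fell (median −0.33), among them Tomm22, a receptor of the outer membrane (−1.07). Of 85 cytoplasmic ribosomal protein genes 22 fell and 4 rose (median −0.26). In the citric acid cycle 4 of 15 fell, Mdh2 (−0.63), Suclg1 (−0.61), Fh1 (−0.51) and Pdha1 (−0.36), and in glycolysis 6 of 15 fell, among them Tpi1 (−0.77) and Pkm (−0.77), while Hk1, a hexokinase, rose (0.51).

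Regulators of mitochondrial biogenesis went in both directions, with 5 of 21 higher, 2 lower and a median of −0.13. Polrmt, the RNA polymerase of mitochondria, fell by 0.69 and Pprc1, a coactivator, by 0.43. The GABP subunit genes Gabpa (0.37), Gabpb1 (0.38) and Gabpb2 (0.42) and Hif1a (0.46) rose. Ppargc1a, the coactivator PGC-1 alpha, passed as well but its group means stayed between 3.13 and 4.54, at or near the limit of low signal. Nrf1 gave 0.00 (SE 0.09), Yy1 −0.04, Tfam −0.37 (adjusted p = 0.0725) and Myc 0.31 (adjusted p = 0.0783), none of which passed. Between CD127+ and CD127− LMPPs no gene of any of these metabolic, mitochondrial or ribosomal lists was called.

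**Figure D4:**
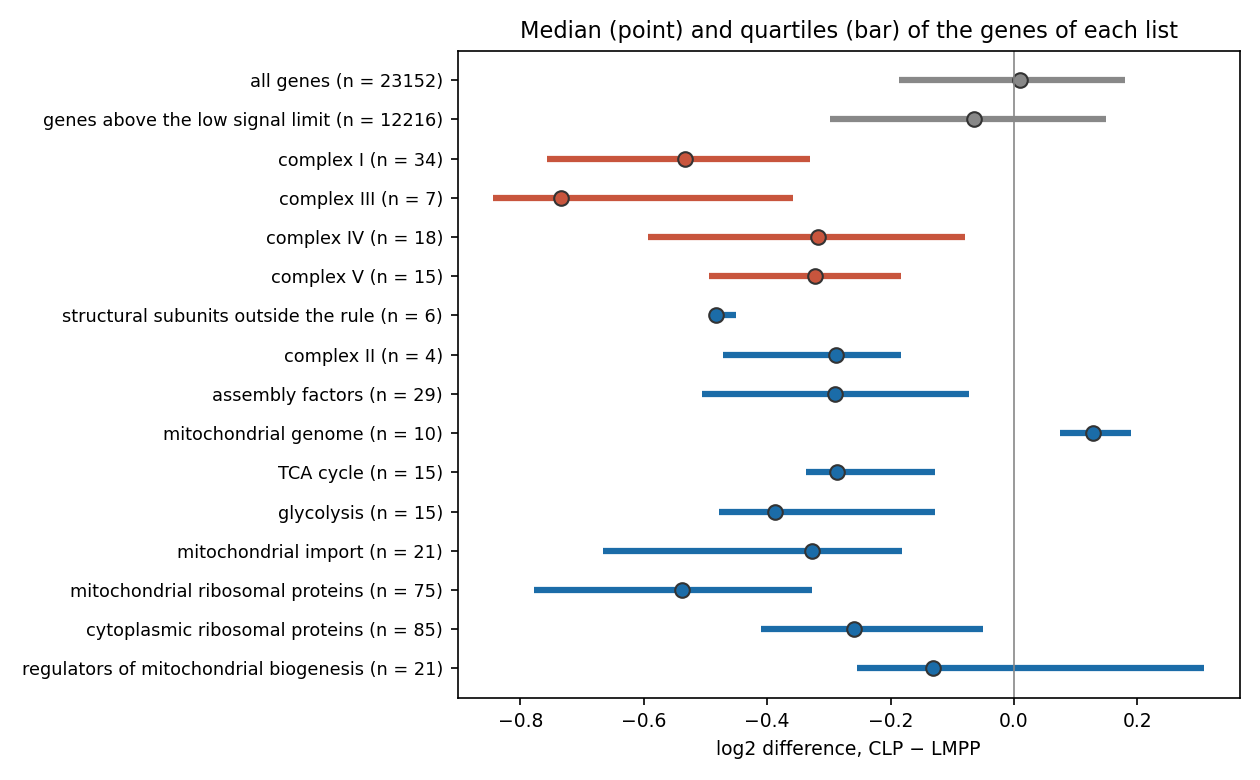
Median (point) and quartiles (bar) of the log2 differences between CLPs and LMPPs over the genes of each list, with all genes and genes above the limit of low signal in grey, the complexes in red and other lists in blue. Complexes I, III, IV and V lie left of 0, and the mitochondrial genome list lies right of 0 (median 0.13). The list labelled structural subunits holds genes of the electron chain and ATP synthase whose symbols do not match the naming rule. Not all of them encode subunits, as it includes the carrier cytochrome c.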

How the data were processed

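Total RNA from 10 sorted samples was amplified and hybridised to Affymetrix arrays, 1 array per sample. The authors deposited a table of 269751 probe sets that was treated here as log2 signal, from its range of 0.20 to 14.79, and Affymetrix Power Tools is named per the submitters' processing notes. The sources used here do not give the summary method, normalization or log base, so the log2 scale is an inference and every fold rests on it. The number of arrays limits the precision.

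Of the probe sets 233753 had 1 gene symbol in the platform annotation, 5106 had several and 30892 none. Only the first were used, and a gene's value is their mean (23152 genes). All 10 arrays were fitted as 4 group means with limma 3.58.1 (lmFit, eBayes) in R 4.3.3, with Benjamini-Hochberg adjustment over all genes, and limma gives every adjusted p printed. Quoted intervals are 95% intervals of that fit for single genes and are not adjusted. The script was tested on simulated data. Tables were made with pandas 2.3.3 and numpy 2.4.6 in Python 3.11.15, and figures with matplotlib 3.10.9.

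The members and the gene lists were chosen with earlier results of these data known. Named were the members past the threshold in a pairwise comparison (up to 30 by adjusted p), the largest differences of each complex, isoform pairs, and the brightest and dimmest member of each complex, and from other lists up to 4 genes. Further members were named so that all are accounted for, and some further list genes were chosen after their values were seen. Alternatives covered the gene summary, scaling, filter, variance model, array weights, samples fitted, replicate block, a 2-fold threshold and leaving out each array.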

Additional observations from a re-analysis of the deposited data

How the results depend on the processing

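Counts are of the 78 members called (limma, adjusted p under 0.05). Pooled CLPs against LMPPs gave 41, from 36 to 43 with each array left out, and 4 with a 2-fold threshold added; other settings stayed within 1.5 times. Cox6a2 was called between CD127+ and CD127− LMPPs in every setting run (1 to 1 with arrays left out). Ly6D+ against Ly6D− CLPs gave 0 throughout (0 to 0 with arrays left out) except 1 with probe sets above the low signal limit only.

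Pairwise counts moved more. Ly6D− CLPs against CD127− LMPPs gave 28 (10 to 24 with arrays left out), 12 with the brightest probe set, 43 with trend and robust settings, 11 with only the arrays compared and 8 at 2-fold. Ly6D− CLPs against CD127+ LMPPs gave 8 (1 to 8), 2 with the median of probe sets, 5 with the brightest, 16 with probe sets above the limit, 24 without dim genes, 29 with trend and robust settings, 0 with only the arrays compared, 5 with array weights and 1 at 2-fold. Ly6D+ CLPs against CD127− LMPPs gave 39 (11 to 40), 21 with the brightest probe set and 9 at 2-fold. Ly6D+ CLPs against CD127+ LMPPs gave 16 (3 to 19), 25 with probe sets above the limit, 39 without dim genes and 41 with trend and robust settings. The count there was 27 with array weights and 4 at 2-fold. The 39, the 41 and the 14 called after quantile normalization each held 1 member that rose, while the 16 held none. The F test over the 4 groups gave 34 (18 to 31), 22 with the median and 18 with the brightest probe set. The cause of these shifts was not tested.

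The replicate block gave 18, 4 and 10 in place of 28, 8 and 16 for Ly6D− CLPs against CD127− LMPPs, Ly6D− CLPs against CD127+ LMPPs and Ly6D+ CLPs against CD127+ LMPPs, and 20 in place of 34 in the F test. It gave 39 in the pooled comparison and 31 for Ly6D+ CLPs against CD127− LMPPs. Deviations of same-numbered arrays correlated at −0.04 to 0.13, so the numbers were not taken to pair the samples.

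Of the 41 pooled calls 35 held with each array left out in turn and 18 in all 19 settings other than the 2-fold threshold. The brightest probe set turned 6 of 133 member calls: Uqcrh to 0.0037 (pooled) and 0.037 (Ly6D− CLPs against CD127− LMPPs), Ndufb7 to 0.10 (pooled) and 0.070 (Ly6D+ CLPs against CD127− LMPPs), and Uqcrfs1 to 0.0073 (pooled) and 0.049 (Ly6D+ CLPs against CD127− LMPPs).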

Other observations

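Probe sets annotated to several symbols were left out of the gene values. For Cox6c, a complex IV subunit measured on such probe sets only, the mean of 5 read 7.69 to 8.02 in LMPPs and 7.17 to 7.55 in CLPs, a difference of −0.45. For Uqcr10, a complex III subunit also measured on such probe sets only, the mean of 5 read 8.52 to 9.17 and 6.90 to 7.74, a difference of −1.34. The shared probe set of Uqcrb read 5.12 to 6.46 in LMPPs and 3.68 to 5.37 in CLPs, the opposite direction to its own single probe set. That of Atp5j2 read 8.06 to 8.72 and 7.51 to 7.94, a difference of −0.64. Those of Ndufb4 read 6.52 to 7.46 and 6.46 to 7.12 on average, which overlapped, with a difference of −0.25. Shared probe sets gave −1.08 for Ndufb2 and −0.15 for Ndufs1. These values were not tested, and the share of each symbol in them cannot be told apart.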
